A study of Mus musculus with 3 samples.

Results

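The miR-29 family was measured by 7 of the 1265 mouse miRNA probes of the array, chosen by name as all probes for an arm of miR-29a, miR-29b or miR-29c. Of these, 3 probes read the guide strands, mmu-miR-29a-3p, mmu-miR-29b-3p and mmu-miR-29c-3p (miR-29a-3p and so on from here), and 4 read the passenger strands, miR-29a-5p, miR-29b-1-5p, miR-29b-2-5p and miR-29c-5p. All 3 guide strands were detected on all 3 arrays and none of the passenger strands on any. miR-29b-3p was at 29.3 units in C2C12-DF cells, against 83.5 units in C2C12-PR cells, and all 3 guide strands were lower on the C2C12-DF array than on either other array, whichever way the arrays were processed. The same held for 28.5% to 33.9% of the 277 probes detected on all 3 arrays, depending on the processing. For miR-29c-3p the log2 ratio of W4-08-PR to C2C12-DF was only 0.049 after quantile normalization, with an SD of 0.15 from control spots. The 3 probes may bind the same molecules and the ways of processing overlap, so they are not separate checks. In W4-08-PR cells the log2 ratios of the guide strands to C2C12-PR lay between -0.30 and 0.00 after quantile normalization, and on the authors' scale between 0.42 and 0.76.

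miR-29 is a family of small RNAs best known for repressing mRNAs of the extracellular matrix, among them collagens and elastin. Its other known targets include DNA methyltransferases and the transcriptional repressor YY1. In skeletal muscle it is known to be held down by YY1 and by TGF-β signalling in myoblasts and to rise during differentiation, where it favours the myogenic programme and limits fibrosis. A miRNA hairpin gives a guide strand, which is loaded into the silencing complex and pairs with its targets through the seed at bases 2 to 8, and a passenger strand that is mostly degraded.

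Each condition was measured on 1 single-colour Toray 3D-Gene array with total RNA. W4-08-PR cells (W408 in the sample labels) are a subline of C2C12 that carries V5-tagged Wnt4 under the CMV promoter with blasticidin resistance, and were grown with 10% fetal bovine serum. C2C12-DF cells are the mouse myoblast line C2C12 in differentiation medium with 2% horse serum, for a time that is not given for the array cultures, and C2C12-PR cells are the same line in medium with 10% fetal bovine serum. No more than 1 subline carrying Wnt4 was measured, the control cells are described without an empty vector, and the paper describes W4-08 cells as forming myotubes in proliferation medium. There were no replicates, so no test between conditions was possible, and the ± beside each value is 1 technical SD from the spread of blank and spike control spots, which holds no biological variation.

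The sequences of the 7 members are shown with the seed in capitals, because the guide strands differ by so few bases that their probes may bind one another's miRNA. All 7 names matched RefSeq records of GRCm38.p6.
miR-29a-3p: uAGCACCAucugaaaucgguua
miR-29b-3p: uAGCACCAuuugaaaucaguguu
miR-29c-3p: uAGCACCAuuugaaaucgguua
miR-29a-5p: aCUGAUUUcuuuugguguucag
miR-29b-1-5p: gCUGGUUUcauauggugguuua
miR-29b-2-5p: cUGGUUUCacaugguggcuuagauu
miR-29c-5p: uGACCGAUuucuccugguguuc
The 3 guide strands share the seed agcacca, whose match in a target mRNA reads uggugcu. Of 1679 mature mouse miRNA names in the table, these 3 alone hold that seed, whereas each of the 4 passenger strands has a seed of its own. Counted from the 5′ end of miR-29a-3p, miR-29c-3p differs by C10U alone, with 21 of 22 bases the same. miR-29b-3p differs from miR-29a-3p by C10U, G18A, U21G and A22U, and from miR-29c-3p by G18A, U21G and A22U, and it is 1 base longer than both. It is the member that ends in AGUGUU, an element described in human cells as directing miR-29b to the nucleus, and 2 of the 1679 mature miRNAs, or 0.119%, end in these letters. Whether the probes tell miR-29a-3p from miR-29c-3p was not tested.

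The family is encoded by 4 genes in 2 clusters. On chromosome 6, Mir29a (chr6:31062660-31062747) and Mir29b-1 (chr6:31063023-31063093) lie on the minus strand with 275 bases between their hairpins, and no other gene of the annotation overlaps them. On chromosome 1, Mir29b-2 (chr1:195037040-195037120) and Mir29c (chr1:195037547-195037634) lie on the plus strand with 426 bases between them, within the gene A330023F24Rik and next to Cd46. The hairpins of the 2 miR-29b genes are shown with both mature arms in capitals, since they give the same guide strand and different passenger strands.
Mir29b-1: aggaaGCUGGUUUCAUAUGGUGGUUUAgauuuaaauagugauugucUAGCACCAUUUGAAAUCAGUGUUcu
Mir29b-2: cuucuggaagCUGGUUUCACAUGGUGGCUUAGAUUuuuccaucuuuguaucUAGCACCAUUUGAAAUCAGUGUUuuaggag
The miR-29b-3p probe therefore reads the products of both clusters together, whereas miR-29a-3p comes from the cluster on chromosome 6 and miR-29c-3p from that on chromosome 1. Only the passenger strands could tell the 2 miR-29b genes apart, and these were below the detection limit.

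Of the 1265 probes, 477 were detected on the W4-08-PR array, 370 on C2C12-DF and 339 on C2C12-PR, and 277 on all 3. Detection follows the authors' own limit: below about 2 SD of the blank spots (5% trimmed at each end) over their mean, a probe has no processed value. Blank spots themselves passed the lowest detected value at rates of 6.79%, 6.01% and 7.15% in the same order. Levels are given as units of spot brightness above the mean of the blank spots of the same array, with no scaling between arrays.

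miR-29a-3p was at 1154 ± 96.4 units on the W4-08-PR array, 707 ± 59.3 units on C2C12-DF and 1113 ± 93.1 units on C2C12-PR. The W4-08-PR and C2C12-PR levels lay within 1 technical SD of each other, and the C2C12-DF level below both by more than their summed SD. Its C2C12-DF level was 63.5% of that of C2C12-PR. In each array's order of brightness, which no scaling of an array can change, it ranked 23 of 1265 on W4-08-PR, 28 on C2C12-DF and 23 on C2C12-PR.

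miR-29b-3p was at 81.9 ± 9.31 units on W4-08-PR, 29.3 ± 7.25 units on C2C12-DF and 83.5 ± 10.3 units on C2C12-PR. Here too the C2C12-DF array stood apart, at 35.0% of the C2C12-PR level, while W4-08-PR and C2C12-PR lay within 1 SD of each other. The C2C12-DF reading was 4.29 blank SD above background, against 12.9 on W4-08-PR and 11.0 on C2C12-PR. Its rank was 143 on W4-08-PR, 216 on C2C12-DF and 124 on C2C12-PR, the widest span of the 3 guide strands.

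miR-29c-3p was at 54.9 ± 7.81 units on W4-08-PR, 40.6 ± 7.62 units on C2C12-DF and 66.8 ± 9.41 units on C2C12-PR. The order of the levels was again C2C12-PR, W4-08-PR, C2C12-DF from high to low, but neighbours in that order lay within the sum of their SDs, and only C2C12-DF and C2C12-PR did not. The C2C12-DF level was 60.8% of the C2C12-PR level. Its rank was 174 on W4-08-PR, 181 on C2C12-DF and 139 on C2C12-PR.

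**Figure D1:**
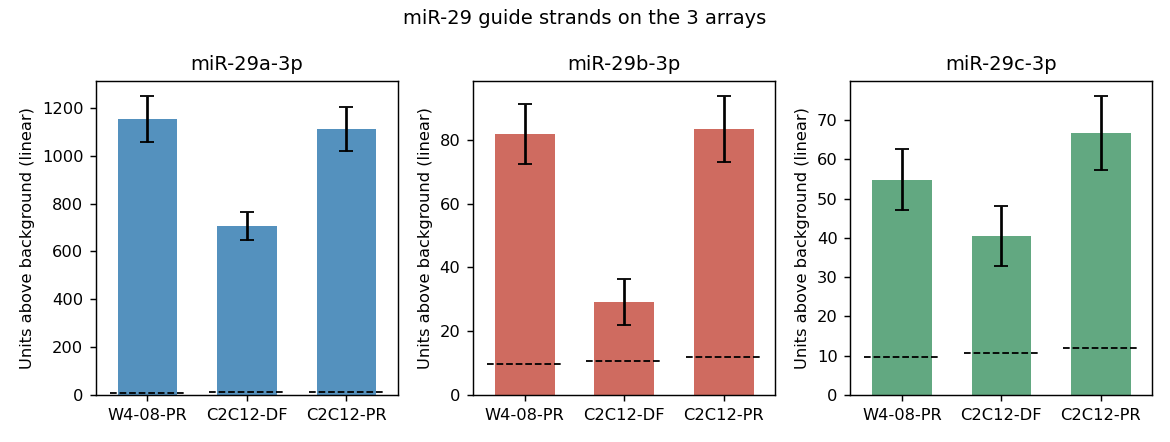
Brightness above background (arbitrary units, linear axis from 0) of miR-29a-3p, miR-29b-3p and miR-29c-3p on the W4-08-PR, C2C12-DF and C2C12-PR arrays, 1 array each; bars give the reading, error bars 1 technical SD and dashes the lowest detected miRNA probe of that array. C2C12-DF has the lowest bar in each panel, most clearly for miR-29b-3p at 29.3 units, against 83.5 units in C2C12-PR.

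None of the 12 readings of the passenger strands reached detection. They lay between -12.0 and 8.17 units, or -1.90 to 1.29 blank SD from the mean of the blank spots, and 7 of the 12 were below that mean. miR-29b-1-5p, from the cluster on chromosome 6, came closest, at 8.17 ± 6.37 units on W4-08-PR, 5.71 ± 6.85 on C2C12-DF and 3.73 ± 7.60 on C2C12-PR, where the lowest detected probes stood at 9.77, 10.8 and 11.9 units. miR-29b-2-5p, from the other cluster, was at 6.31, -4.97 and -3.23 units in that order of arrays, and miR-29c-5p at 5.67, -3.29 and -3.83 units. miR-29a-5p was below background on all 3 arrays, at -12.0, -8.72 and -1.04 units. All of these overlap with the blank spots, so no ratio was formed, and a passenger strand below these limits was not detectable rather than shown to be absent.

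**Figure D2:**
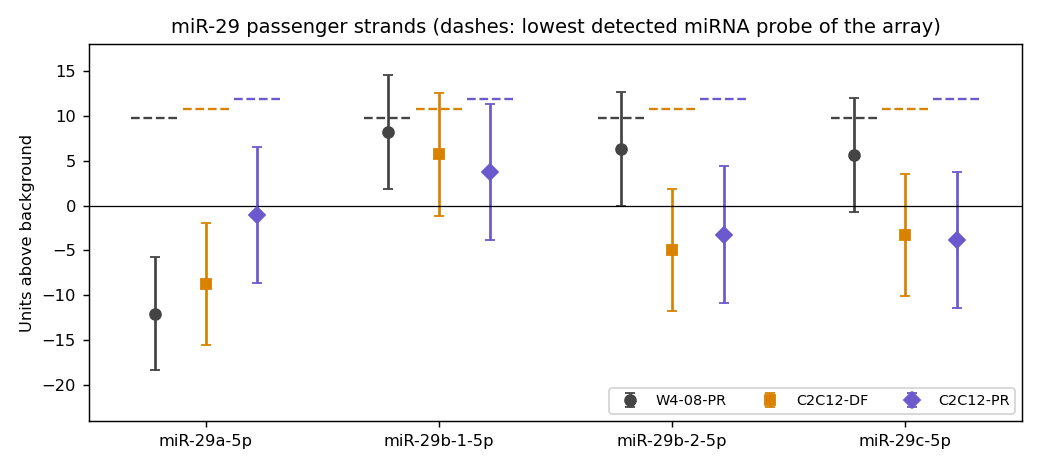
Units above background of the 4 miR-29 passenger strands on the W4-08-PR, C2C12-DF and C2C12-PR arrays; points give 1 reading each, error bars 1 technical SD and dashes the lowest detected miRNA probe of the array. All 12 points lie below the dashes, between -12.0 and 8.17 units.

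For the ratios between arrays, log2 values were taken after normexp background correction with an offset of 50 and quantile normalization over the 3 arrays. Because of the offset, dim probes such as those of miR-29b-3p and miR-29c-3p give ratios nearer to 0. A difference of 2-fold or more, a log2 ratio of 1 in either direction, was called if the array with the higher value detected the probe.

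The first comparison sets the Wnt4 subline beside its parental C2C12 line, both in medium with 10% fetal bovine serum. With 1 subline and no empty vector, Wnt4 cannot be told apart from other traits of the subline. On the log2 scale miR-29a-3p was at 10.18 in W4-08-PR and 10.18 in C2C12-PR, a log2 ratio of 0.00 ± 0.21, which is fixed at 0 because the probe had the same rank on both arrays. miR-29b-3p was at 7.08 in W4-08-PR and 7.35 in C2C12-PR (log2 ratio -0.27 ± 0.14), and miR-29c-3p at 6.82 in W4-08-PR and 7.12 in C2C12-PR (-0.30 ± 0.15). None of the 3 was called, where 2.33% of the 514 probes detected on at least 1 of these arrays were called in either direction. The median of the 3 was -0.27, against -0.026 over the 302 probes detected on both arrays, of which the middle 50% lay between -0.18 and 0.15. miR-29b-3p and miR-29c-3p thus lay just below that middle range, at about 2 technical SD from 0. The direction depends on the scale: on the authors' processed values all 3 were above 0, at 0.76 for miR-29a-3p, 0.68 for miR-29b-3p and 0.42 for miR-29c-3p. On that scale the median of the 277 probes detected on all arrays was itself 1.05, against -0.025 after quantile normalization. Relative to the median of those probes, miR-29b-3p lay between -0.42 and -0.17 and miR-29c-3p between -0.63 and -0.28 on all 9 scales tried, and miR-29a-3p between -0.29 and 0.066. Taking the median off removes any array-wide factor. Scales that differ only by such a factor must therefore agree, and the 9 are not separate checks.

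The second comparison asks what moving C2C12 cells to differentiation medium changes. miR-29b-3p was at a log2 level of 6.57 in C2C12-DF and 7.35 in C2C12-PR, a log2 ratio of -0.78 ± 0.17, or 1.72-fold lower. miR-29a-3p was at 9.79 in C2C12-DF and 10.18 in C2C12-PR (-0.39 ± 0.23), and miR-29c-3p at 6.77 in C2C12-DF and 7.12 in C2C12-PR (-0.35 ± 0.16). All 3 were below 0, by 4.57, 1.70 and 2.12 technical SD, which hold no variation between arrays. None was called, where 4.01% of 424 probes were called in either direction and 3.3% lower. Among the 285 probes detected on both arrays, 41.1% were below 0, the median was 0.045 and 25% of them lay below -0.15. The guide strands lay among that lowest 25%, at places 18 (miR-29b-3p), 31 (miR-29a-3p) and 36 (miR-29c-3p) from the lowest.

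The call of miR-29b-3p depends on how its dim C2C12-DF signal is treated. With an offset of 10 in place of 50 its log2 ratio was -1.16, with plain background subtraction -1.74, with the spike controls as the scale -1.53, on the authors' processed values -1.31 and with no scaling at all -1.51, each past the 2-fold limit. On these 5 scales, in that order, 5.19%, 8.25%, 7.78%, 4.95% and 5.42% of the 424 probes were called lower. The authors' processed values and the values with no scaling give a ratio only for the 285 probes detected on both arrays. There 21 and 23 probes were called lower, so their shares of the 424 are too low. It stayed inside the limit with median scaling (-0.67), the 75th percentile (-0.66) and no between-array normalization (-0.65), all at the offset of 50. miR-29a-3p ranged from -0.67 to -0.39 and miR-29c-3p from -0.76 to -0.32 over the 9 scales, below 0 on all 9 and past the limit on none. In the order of the 277 probes detected on all arrays, miR-29b-3p stood at places 12 to 21 from the lowest over these scales, miR-29c-3p at 33 to 36 and miR-29a-3p at 23 to 67. Scales that differ only by an array-wide factor give the same or nearly the same places. The place of the dim miR-29c-3p barely moved, whereas that of the bright miR-29a-3p did.

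**Figure D3:**
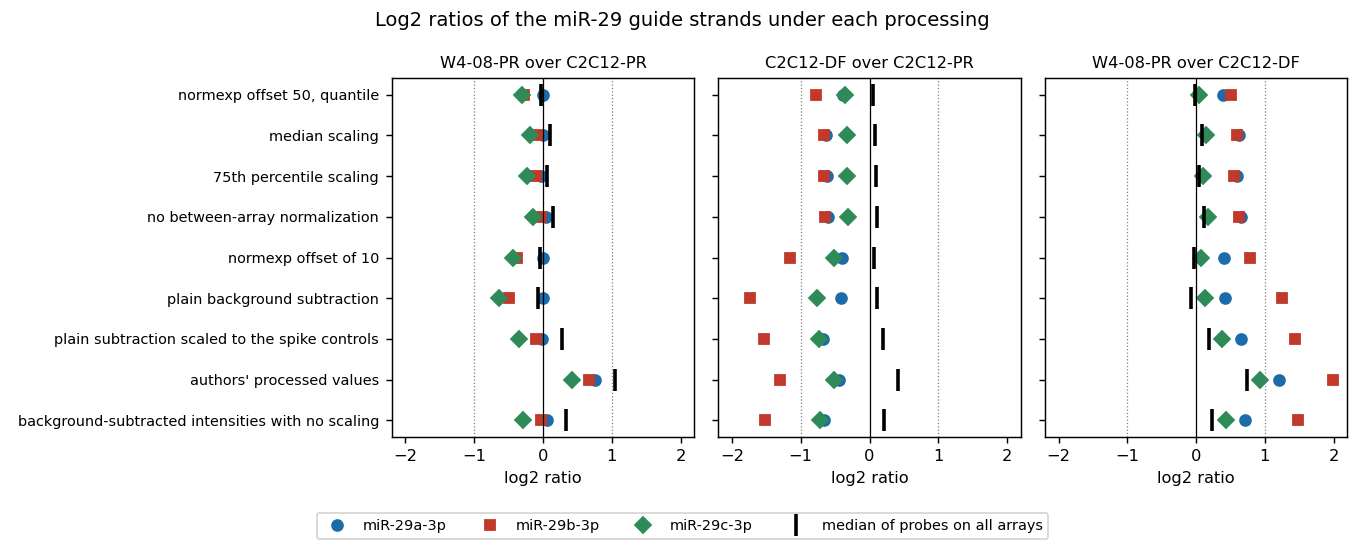
Log2 ratios of miR-29a-3p, miR-29b-3p and miR-29c-3p in the 3 comparisons under each of 9 ways of processing; black ticks give the median of the 277 probes detected on all arrays, and dotted lines a 2-fold difference. In C2C12-DF over C2C12-PR all points lie below 0, and miR-29b-3p passes the 2-fold line on 5 of the 9 scales.

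The third comparison sets the Wnt4 subline in proliferation medium beside C2C12 in differentiation medium. On the log2 scale miR-29b-3p read 7.08 in W4-08-PR cells and 6.57 in C2C12-DF cells, a log2 ratio of 0.51 ± 0.14, or 1.42-fold. miR-29a-3p read 10.18 in W4-08-PR cells and 9.79 in C2C12-DF cells (0.39 ± 0.18). miR-29c-3p read 6.82 in W4-08-PR cells and 6.77 in C2C12-DF cells (0.049 ± 0.15). The miR-29c-3p difference is within 1 technical SD. None was called, where 2.1% of 524 probes were called in either direction. From the highest of 323 probes, whose median was -0.033, miR-29b-3p stood at place 25, miR-29a-3p at 38 and miR-29c-3p at 118. All 3 were above 0 on all 9 scales. miR-29b-3p passed the 2-fold limit with plain background subtraction (1.25), where 5.53% of the 524 probes were called higher, on the spike scale (1.43), where 10.1% were, and with no scaling (1.49), where 8.02% were. On the authors' processed values miR-29b-3p (1.98) and miR-29a-3p (1.21) passed it and miR-29c-3p (0.93) did not. There 19.8% of the 524 probes were called higher. With no scaling and on the authors' values only the 323 probes detected on both arrays have a ratio. The shares of the 524 are therefore too low on these scales, with 42 and 104 probes called higher. On the authors' values the median of the 277 probes was 0.74. Relative to that median miR-29b-3p lay at 1.25, miR-29a-3p at 0.47 and miR-29c-3p at 0.20.

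**Figure D4:**
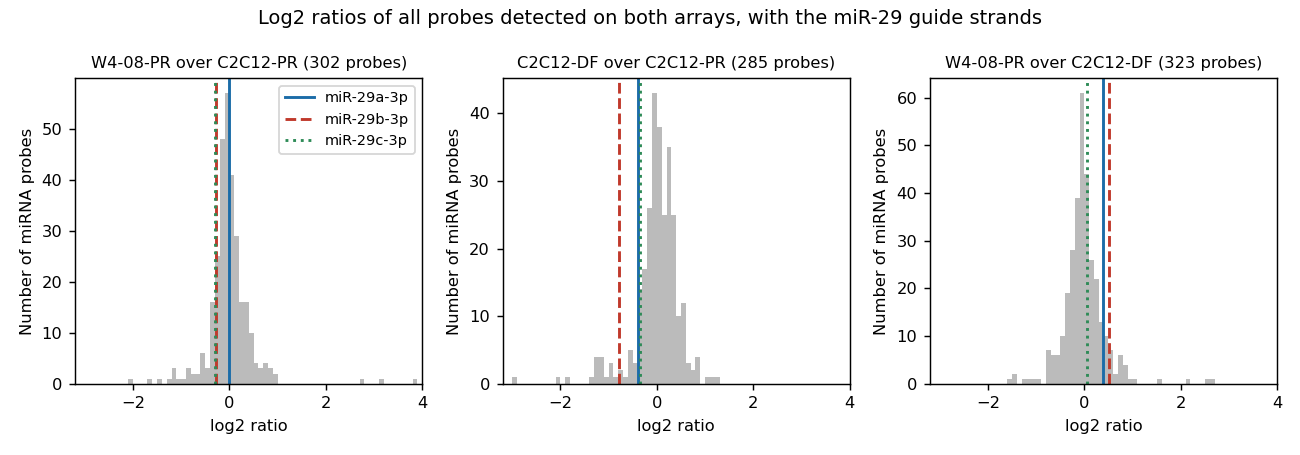
Numbers of miRNA probes by log2 ratio after normexp correction and quantile normalization, for the probes detected on both arrays of each comparison (302, 285 and 323), with lines at the 3 miR-29 guide strands. In C2C12-DF over C2C12-PR the lines stand left of the bulk of probes, at -0.78, -0.39 and -0.35.

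The 3 comparisons share arrays, so the guide strands' low C2C12-DF reading enters 2 of them. With quantile normalization, 79 of the 277 probes (28.5%) had their lowest value on the C2C12-DF array, and over the 9 scales this share ran up to 33.9%. The 3 guide strands belonged to that set on every one of the 9. They share a seed and most of their bases and may bind the same molecules, so they are not 3 separate measurements.

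Within an array the ratio of 1 guide strand to another is free of any array-wide factor, though not of the background correction. On background-subtracted brightness, the log2 ratio of C2C12-DF over C2C12-PR was lower for miR-29b-3p than for miR-29a-3p by a difference of -0.86 ± 0.43, or 1.97 technical SD. This size depends on the background step, since the difference was -0.39 ± 0.28 after normexp correction and quantile normalization and -0.039 with median scaling at the same offset of 50. Against miR-29c-3p the difference was -0.79 ± 0.52. miR-29c-3p and miR-29a-3p differed by -0.063 ± 0.38, so these closest relatives in sequence could not be told apart in their ratio. In W4-08-PR over C2C12-PR the difference was -0.080 ± 0.30 for miR-29b-3p and -0.34 ± 0.34 for miR-29c-3p, each against miR-29a-3p, and in W4-08-PR over C2C12-DF miR-29b-3p stood above miR-29c-3p by 1.05 ± 0.52. The last of these was the largest of the 9 differences relative to its error, at 2.02 technical SD.

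Among the other probes detected on all arrays, those whose ratios of W4-08-PR and of C2C12-DF over C2C12-PR lay nearest to the mean of the guide strands (-0.19 and -0.50) were miR-93-5p, let-7i-5p, miR-375-5p, miR-17-3p and miR-5128. Likeness was the distance between the 2 log2 ratios, over 3 arrays. miR-93-5p, a member of the miR-17 seed family, was at -0.14 for W4-08-PR and -0.58 for C2C12-DF over C2C12-PR, a distance of 0.090. let-7i-5p, a let-7 guide strand, was at -0.097 for W4-08-PR and -0.52 for C2C12-DF, a distance of 0.095. The guide strands themselves lay farther from their own mean, at 0.22 for miR-29a-3p, 0.29 for miR-29b-3p and 0.19 for miR-29c-3p.

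Of the muscle-enriched miRNAs detected in C2C12-DF and C2C12-PR, 4 of 5 had a log2 ratio above 0, as did 157 of all 285 probes detected on both. The 3 guide strands of miR-29 were below 0. Of 9 probes on this list, which holds the myomiRs miR-1, miR-133 and miR-206, the myosin-gene miRNAs miR-208 and miR-499, and miR-486 of the ankyrin 1 gene, 5 were detected on both arrays of either comparison with C2C12-PR. Of the 7 detected on at least 1 of the arrays of W4-08-PR and C2C12-PR, 3 were called higher in W4-08-PR, against 0.584% of all 514 such probes. Of the 5 so detected for C2C12-DF and C2C12-PR, 1, miR-206-3p, was called higher in C2C12-DF (1.26 ± 0.14), against 0.708% of 424. The median log2 ratio of the 5 detected on both arrays was 2.74 in the first comparison and 0.59 in the second. The sum of the detected probes of the list was 3719 units on W4-08-PR, 466 units on C2C12-DF and 153 units on C2C12-PR. miR-206-3p was at 1917 units in W4-08-PR, 219 units in C2C12-DF and 54.4 units in C2C12-PR, so the array with the most muscle miRNA was not the one with the lowest miR-29. The study chose miR-206 and miR-133 on these same arrays, and their direction is no independent evidence.

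Other miRNAs known to act in tissue fibrosis were read by 10 probes, all detected on at least 1 array. None was called in any comparison. Over all probes, 2.33% of 514 were called in W4-08-PR over C2C12-PR, 4.01% of 424 in C2C12-DF over C2C12-PR and 2.1% of 524 in W4-08-PR over C2C12-DF. At such shares the lack of a call among 10 probes says little about the list. It also depends on the processing. With no scaling, miR-21a-5p passed 2-fold in C2C12-DF over C2C12-PR, where 5.42% of the 424 probes were called lower, a share that is too low as stated above. In W4-08-PR over C2C12-PR miR-214-3p, miR-199a-5p, miR-30a-5p and miR-30c-5p passed 2-fold with no scaling, and the share of all probes was not counted there. miR-21a-5p, which promotes fibrosis, came closest to a call after quantile normalization, with a log2 ratio of -0.95 ± 0.16 in C2C12-DF over C2C12-PR. It was at 794 units in W4-08-PR, 374 units in C2C12-DF and 826 units in C2C12-PR. Its levels thus ran in the same order over the arrays as those of miR-29c-3p and miR-29b-3p. The miR-30 members, known to limit connective tissue growth factor, differed among themselves. miR-30c-5p was at 563 units in C2C12-DF and 293 units in C2C12-PR (0.75 ± 0.20), while miR-30b-5p (0.17 ± 0.14), miR-30d-5p (0.00 ± 0.14) and miR-30a-5p (-0.034 ± 0.13) lay nearer to 0. miR-30e-5p was lowest in C2C12-DF, where it was not detected (9.90 units), against 26.9 units in C2C12-PR, and was at 38.5 units in W4-08-PR. miR-214-3p, which also promotes fibrosis, was at 379 units in W4-08-PR, 229 units in C2C12-DF and 135 units in C2C12-PR. Its log2 ratio over C2C12-PR was 0.72 ± 0.15 for W4-08-PR and 0.48 ± 0.12 for C2C12-DF. In C2C12-DF over C2C12-PR miR-199a-5p, which promotes fibrosis too, was at -0.032 ± 0.15. Of those that limit fibrosis, miR-26a-5p was at 0.32 ± 0.14 and miR-101a-3p at -0.011 ± 0.20 in the same comparison. Over C2C12-PR, the median log2 ratio of this list (9 probes detected on both arrays) was 0.20 for W4-08-PR and 0.00 for C2C12-DF, beside -0.27 and -0.39 for the guide strands of miR-29.

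**Figure D5:**
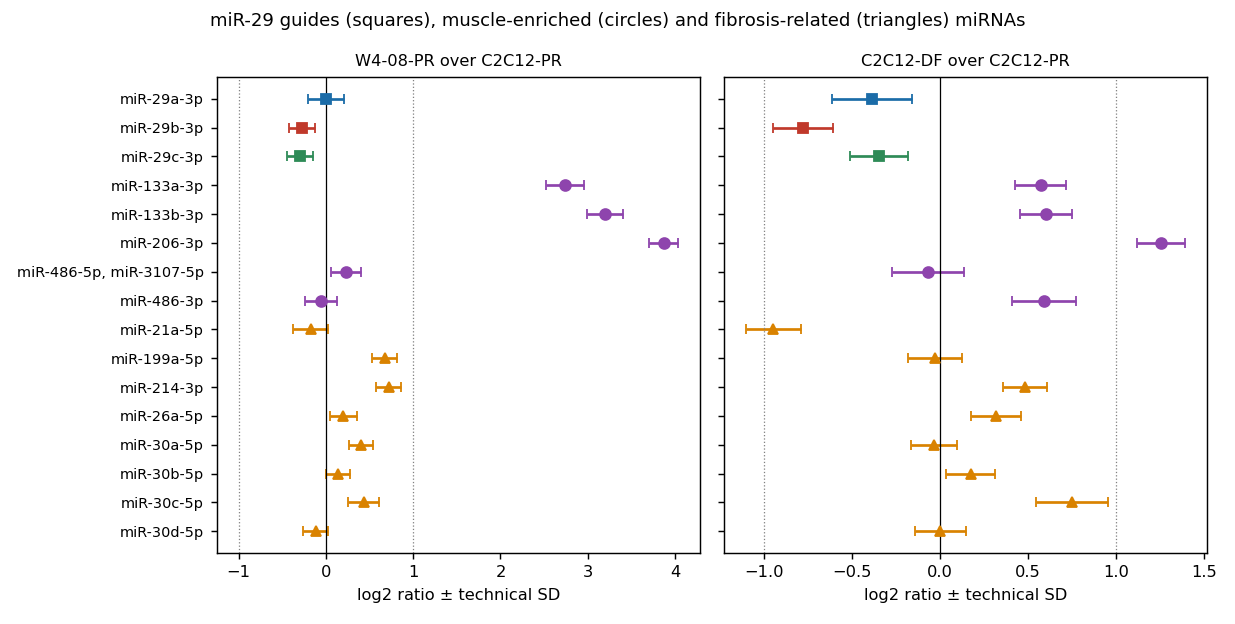
Log2 ratios over C2C12-PR of W4-08-PR (left) and C2C12-DF (right) for the 3 miR-29 guide strands (squares) and for the muscle-enriched (circles) and fibrosis-related (triangles) miRNAs detected on all 3 arrays; error bars give 1 technical SD and dotted lines a 2-fold difference. miR-206-3p reaches 3.87 on the left, where the miR-29 squares lie at 0.00, -0.27 and -0.30.

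Markers of other cell types were dim. No neural marker (of 3) and no liver marker (of 1) was detected on any array, and 1 of 6 epithelial and 1 of 2 endothelial markers were, at up to 15.0 and 10.8 units. Of 6 blood markers 3 were detected, the brightest being miR-144-3p at 48.3 units on C2C12-PR, where it was not detected on C2C12-DF (3.70 units) or W4-08-PR (6.57 units). The summed detected units of the blood list were 23.4 on W4-08-PR, 16.9 on C2C12-DF and 67.1 on C2C12-PR. Their part in the miR-29 readings was not tested. In a culture as a whole, fewer cells that hold a miRNA and less of it per cell cannot be told apart, and neither can the culture, the RNA preparation and the array be told apart from the condition with 1 array each.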

How the data were processed

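The paper extracted RNA with Isogen, while the sample labels name a miRNeasy kit. The authors deposited, for each of 3 arrays, the intensity of all 3200 spots on a linear scale before background subtraction, and background-subtracted intensities for detected probes, the background being close to the mean of 1664 blank spots after trimming. The deposited processed signal is that value times a factor (0.914 for W4-08-PR, 0.647 for C2C12-DF and 0.561 for C2C12-PR) that sets the median of detected probes to 25, and the series table holds the same signal on a linear, uncentred scale, with a largest difference of 4e-06 over the probes compared. Scanner settings and probe sequences are not given in the sources used here.

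Intensities were corrected with normexp in limma 3.58.1 (R 4.3.3, offset 50, trimmed blank mean as background), fitted on all spots, and quantile-normalized over 1265 miRNA probes. Technical SDs carried the SD of the blank spots and a spike control coefficient of variation of 8.33% through these steps, and 1 flagged blank spot was left out of the SD. Other steps used Python 3.11.15 with numpy 2.4.6 and pandas 2.3.3. Precision is limited by having 1 array per condition. The code was tested on simulated data, with changes larger than any miR-29 ratio. Recovery of a change was required only of probes brighter than every reading of miR-29b-3p and miR-29c-3p. Unchanged probes were checked at dimmer levels, but not as dim as the C2C12-DF readings of miR-29b-3p and miR-29c-3p. The check therefore says nothing on changes in signals as dim as those of miR-29b-3p and miR-29c-3p. Named were all members, the 5 nearest probes, and detected muscle-enriched and fibrosis-related miRNAs. The members and lists were chosen with earlier results of these data known. Sequences came from RefSeq (GRCm38.p6), and gene names and neighbours from the annotation of that assembly.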

Additional observations from a re-analysis of the deposited data

How the results depend on the processing

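With 1 array per condition, no replicate could be left out, and no paired analysis was possible because each condition has 1 array. Of the 3 comparisons, the median log2 ratio of the guide strands kept its sign under every alternative in C2C12-DF over C2C12-PR and in W4-08-PR over C2C12-DF, whereas in W4-08-PR over C2C12-PR it was above 0 on the authors' processed values (0.68). Values that moved by more than 1 technical SD from the medians of -0.27, -0.39 and 0.39 follow, with any cause not tested. In W4-08-PR over C2C12-PR the median was -0.068 with median scaling, -0.11 with the 75th percentile, -0.024 with no between-array normalization, -0.49 with plain background subtraction, -0.0997 when scaled to the spike controls and -0.028 with no scaling. In C2C12-DF over C2C12-PR it was -0.63 with median scaling, -0.62 with the 75th percentile, -0.76 with plain background subtraction, -0.74 when scaled to the spike controls and -0.72 with no scaling. In W4-08-PR over C2C12-DF it was 0.60 with median scaling, 0.62 with no between-array normalization, 0.65 on the spike scale, 1.21 on the authors' values and 0.71 with no scaling. No guide strand was called after normexp at an offset of 50 with quantile normalization. In C2C12-DF over C2C12-PR 1, miR-29b-3p, was called lower with an offset of 10, plain background subtraction, the spike scale, the authors' values and no scaling. In that order 5.19%, 8.25%, 7.78%, 4.95% and 5.42% of the 424 probes were called lower. The last 2 shares are too low, because only the 285 probes detected on both arrays have a ratio there. In W4-08-PR over C2C12-DF 1, miR-29b-3p, was called higher with plain background subtraction, the spike scale and no scaling. The shares of the 524 probes called higher there were 5.53%, 10.1% and 8.02%. On the authors' values 2 were called higher, where 19.8% of the 524 were. With no scaling and on the authors' values only the 323 probes detected on both arrays have a ratio, so those shares are too low. With that processing, a size limit of 0.9 called none either. A limit of 3 SD, detection on both arrays and a size limit of 2 are stricter, so they could not add a call. That processing is normexp at the offset of 50 with quantile normalization. The unscaled values were added after seeing the data. No ratio is given for the 4 passenger strands, which were below detection on all arrays, and signals of miR-29b-3p and miR-29c-3p on C2C12-DF, at 4.29 and 5.94 blank SD, limit the precision of their ratios.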
